A study of Mus musculus with 7 samples.

Results

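The subcortical maternal complex is a protein assembly that lies under the plasma membrane of the mammalian oocyte and the early embryo. In all, 7 genes of this complex were followed: Nlrp5 (also called Mater), Nlrp2, Tle6, Ooep (Floped), Khdc3 (Filia), Padi6 and Zbed3. They were read from a table of oocyte transcripts by the gene that the table names for a transcript, provided that gene and transcript lay on the same strand. This rule gave a transcript for 5 of the 7 genes, namely Nlrp5, Nlrp2, Khdc3, Padi6 and Zbed3, out of 33437 transcripts in the table. Tle6 was read by its position, from the transcript on its own strand that covers its span but carries the name of the neighbouring gene Tle2. Ooep lies inside a longer transcript that also covers Dppa5a, so that its reads cannot be separated from those of Dppa5a.

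Proteins of the complex accumulate while the oocyte grows, and most of its genes are maternal effect genes, whose loss in the mother halts or disturbs the cleavage of her embryos. NLRP5, OOEP, TLE6 and KHDC3 bind each other. NLRP2, PADI6 and ZBED3 belong to or work with this core, and PADI6 is also needed for the cytoplasmic lattices, fibrous structures on which the oocyte stores proteins. SETD1B is a histone methyltransferase that places H3K4me3, a histone mark of active promoters.

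The data were single-cell RNA-seq libraries of germinal vesicle (GV) oocytes, the fully grown stage arrested in meiotic prophase, from mice aged 21 days, labelled C57BL6 and kept on a C57BL/6OlaHsd background by the study's methods. Both genotypes were labelled Setd1b floxed/floxed. The 4 Setd1b cKO libraries came from Gdf9-Cre positive females, in which the Gdf9 promoter drives Cre in growing oocytes, and the 3 Setd1b WT libraries from females labelled Gdf9-Cre negative. The study's methods also allow control females that carry Gdf9-Cre with an intact Setd1b allele, so the WT genotype rests on the labels. Every library was made from a single oocyte, and the labels do not tie oocytes to mothers, so the p-values below measure the spread between these oocytes. The question was whether the transcripts of the complex changed in oocytes that had lost SETD1B. Values are RPM, the reads of a transcript relative to all mapped reads of its library. The amount of RNA in an oocyte was not measured.

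The libraries held 8582493 to 12972366 mapped reads. Reads outside the listed transcripts made up 13.2% to 16.4% of the cKO libraries and 9.57% to 9.90% of the WT libraries, without overlap. The cKO replicate 4 and WT replicate 3 libraries stood together, apart from the other 5, on the second principal component, which held 31.0% of the variance. Member values are therefore also given without this pair, a choice made after the libraries had been seen. The transcript that covers Setd1b had 8.31, 16.7, 12.8 and 2.68 RPM in the cKO libraries and 17.7, 16.3 and 8.61 RPM in the WT libraries. These values overlap, and since the table does not separate the floxed exons from the rest of the gene, they do not check the deletion. All 10 oocyte markers in the table were well read, with summed levels of 10283 to 14421 RPM in cKO and 14650 to 19239 RPM in WT libraries, which do not overlap. The 14 granulosa cell markers summed to 122 to 289 RPM in cKO and 93.3 to 276 RPM in WT libraries, led by Serpine2, Nr5a2 and Cyp19a1, while Amh and Foxl2, defining genes of that cell type, stayed below 1 RPM in every library. Inha, another of them, had 7.03, 11.4, 13.2 and 0.583 RPM in cKO and 0.81, 4.32 and 0 RPM in WT libraries (log2 fold change 1.70, adjusted p = 0.225), and it passed as higher without cKO replicate 4 (2.40, adjusted p = 0.0178) and without that library and WT replicate 3 (1.86, adjusted p = 0.0139). Of 7 granulosa markers tested 5 had a positive estimate and 0 passed, with a median of 0.33. Over all 18179 transcripts tested, 10971 had a positive estimate and 5.71% passed, with a median of 0.12. Of 5 immune markers in the table, Lyz2, Cd52 and Tyrobp had no read in any library. The immune list summed to 5.14 to 13.3 RPM in cKO and 2.47 to 4.77 RPM in WT libraries, without overlap, and most of it was Cd68. The part of these differences in the member values below was not tested.

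None of the 5 members found by the rule passed the threshold, which asked for more than 2-fold at an adjusted p under 0.05, and 0 had an adjusted p under 0.05 at any fold (limma, 0 also with voom on recovered reads). At an unadjusted p under 0.05 the count among these 5 was 0 as well, beside 21.7% of all transcripts tested, a share at which a count of 0 in 5 is not a result about the members. Across all 18179 transcripts tested, 683 were higher and 355 lower in cKO oocytes, so that 5.71% passed the threshold in either direction and 1.95% passed it as lower. At any fold 6.15% had an adjusted p under 0.05. The median log2 fold change of the 5 members (cKO minus WT, on the log2(RPM + 1) scale used for every fold change here) was 0.01, beside 0.12 over all transcripts tested. The smallest member value was -0.40 and the largest 0.26. All 5 of the 95% confidence intervals lay between -0.97 and 0.83, so a change of 2-fold in either direction fell outside each of them in this fit, while smaller changes did not. For Nlrp5, Khdc3 and Zbed3 this also held in all 19 alternatives. The interval of Nlrp2 reached past a 2-fold decrease in 7 of them, among these the fits without cKO replicate 1 or 2 or WT replicate 2 or 3, down to -1.19. The interval of Padi6 reached past a 2-fold decrease in 4 and past a 2-fold increase in 4, among these the fits without cKO replicate 1 or 2 or any single WT library, from -1.15 to 1.19 at the extremes.

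**Figure D1:**
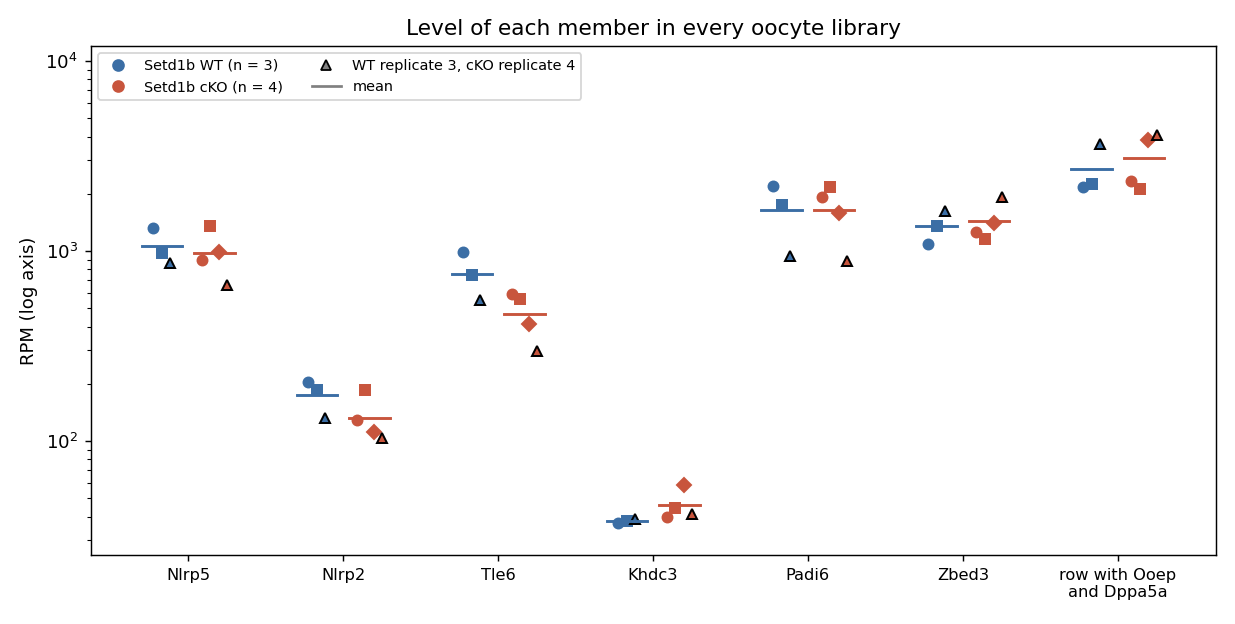
RPM (log axis) of each member in every library, blue for Setd1b WT (n = 3) and red for Setd1b cKO (n = 4), with a bar at the mean of each genotype. The genotypes overlap in every row but Khdc3, and the triangles with a black edge mark WT replicate 3 and cKO replicate 4, which lie low for Padi6 and high for Zbed3 in both genotypes.

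Nlrp5 is the large NLR-family scaffold of the complex and spans chr7:23385889-23441922 (GRCm38, plus strand). It had 902, 1360.4, 982 and 665 RPM in the 4 cKO libraries and 1327, 979.6 and 869 RPM in the 3 WT libraries. The genotypes overlapped, with cKO replicate 2 above every WT library and cKO replicate 4 below all others. The log2 fold change was -0.14 ± 0.28 (SE; 95% interval -0.75 to 0.48, adjusted p = 0.834), and -0.10 without cKO replicate 4 and WT replicate 3. Nlrp5 was among the best read transcripts of these oocytes, with rank 90 in the table by mean RPM.

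Nlrp2, a relative of Nlrp5 with the same kind of domain layout, lies at chr7:5298547-5351035 on the minus strand. Its cKO libraries had 129, 185, 112 and 104 RPM, and its WT libraries 203, 186 and 132 RPM. Only cKO replicate 2 lay within the WT range, and 3 of the 4 cKO libraries lay below every WT library. The log2 fold change was -0.40 ± 0.26 (95% interval -0.97 to 0.16, adjusted p = 0.413), the lowest among the 5 members, and -0.49 without the pair of libraries (adjusted p = 0.178). In every alternative run the sign was negative, and none of them brought the adjusted p under 0.05.

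Another transcript of the table overlaps the 5' end of Nlrp2 on the opposite strand, at chr7:5350542-5362193, and shares 532 bases with the Nlrp2 transcript. The table names it Nlrp2, but its strand and span are those of Gm5065, an annotated gene that starts inside Nlrp2 and runs away from it. It had 108, 128, 143 and 56.5 RPM in the cKO libraries and 291, 282 and 176 RPM in the WT libraries, without overlap. Its log2 fold change was -1.23 ± 0.33 (95% interval -1.96 to -0.51) with an adjusted p of 0.0524, just short of the threshold. Without cKO replicate 4 and WT replicate 3 the adjusted p was 0.0013 at a log2 fold change of -1.18, without WT replicate 3 alone it was 0.0389, and over all alternatives it ranged from 0.0013 to 0.212. Strand use in the counting is not stated in the sources used here, so reads in the shared bases cannot be assigned to either gene. Non-overlap with lower cKO values was found for 7.14% of all transcripts tested. Whether Nlrp2 and Gm5065 differ in their response was not tested.

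Tle6, a short relative of the Groucho corepressors, lies at chr10:81590904-81601073 on the minus strand. The transcript that covers it had 597, 562, 413 and 296 RPM in cKO and 985, 746 and 551 RPM in WT oocytes. The 2 highest values were WT and the 2 lowest cKO, but WT replicate 3 was below cKO replicates 1 and 2, so the genotypes overlapped. The mean was 467 ± 139 RPM (SD, n = 4) in cKO and 760.4 ± 218 RPM (SD, n = 3) in WT libraries. The log2 fold change was -0.71 ± 0.30 (95% interval -1.38 to -0.05), a ratio of 0.609 with an interval of 0.386 to 0.963. The unadjusted p was 0.0363 and the adjusted p 0.192, so Tle6 did not pass. Without cKO replicate 4 and WT replicate 3 the log2 fold change was nearly the same, -0.73, and the adjusted p was 0.037, still short of 2-fold. Leaving out 1 library at a time gave -0.93 to -0.51, with adjusted p from 0.128 to 0.497. Among the 6 genes with a row of their own, 1 interval (Tle6) did not contain 0, a share close to the 21.7% of all transcripts with an unadjusted p under 0.05.

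**Figure D2:**
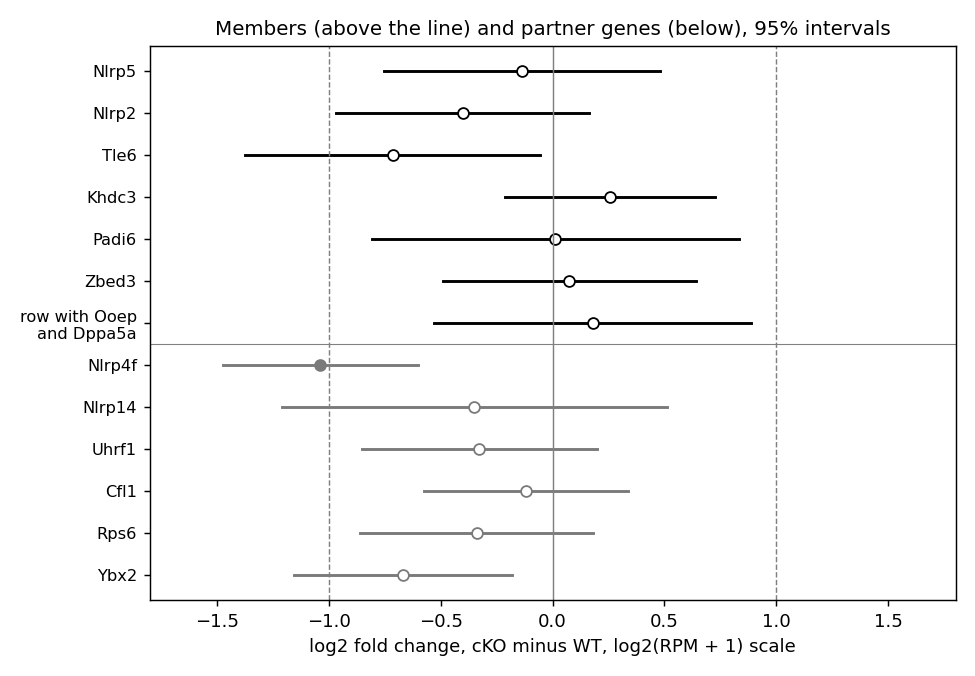
Log2 fold change (cKO minus WT, log2(RPM + 1) scale) of the members above the grey line and of 6 partner genes below it, each with its 95% confidence interval from limma. Dashed lines mark 2-fold, and the single filled point, Nlrp4f at -1.04, is the only one with an adjusted p under 0.05.

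Khdc3 encodes a KH domain protein of the core complex. Its gene is annotated at chr9:73101836-73104438 on the plus strand, inside a table transcript that runs on at both ends from 73100851 to 73106931 and enters Gm20509, a longer gene on the same strand, so reads of Gm20509 may be included. It had 40.1, 44.2, 58.7 and 41.4 RPM in cKO libraries against 37.0, 38.004 and 38.9 RPM in WT libraries. Every cKO library lay above every WT library, the only such member, and 13.2% of all transcripts tested showed this order. The difference was small: the log2 fold change was 0.26 ± 0.21 (95% interval -0.21 to 0.73, adjusted p = 0.545), 0.32 without the pair of libraries and 0.14 without cKO replicate 3, the highest library. Khdc3 had the tightest WT values of all members, 37.98 ± 0.96 RPM (SD, n = 3).

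Ooep, a further KH domain protein of the core, is annotated at chr9:78376109-78378725 on the minus strand. On that strand the table holds a single transcript, from 78363724 to 78378853, over both Ooep and Dppa5a, a KH domain gene known from pluripotent cells. This shared transcript had 2334, 2111, 3825 and 4070.0 RPM in cKO and 2185, 2241 and 3638 RPM in WT libraries. The libraries formed a lower set of 4 (up to 2334 RPM) and an upper set of 3 (from 3638 RPM), and both sets held both genotypes. The log2 fold change was 0.18 ± 0.32 (95% interval -0.53 to 0.89, adjusted p = 0.807), a value for the 2 genes together. The only transcript that the table names Ooep runs on the plus strand, from 78377765 to 78395043, over the first part of the gene in the opposite direction. It had between 5.26 and 12.3 RPM in all 7 libraries, with a log2 fold change of 0.30 (adjusted p = 0.663).

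Padi6, the oocyte member of the peptidylarginine deiminases, lies at chr4:140727355-140742643 on the minus strand. It had 1921, 2169.5, 1593 and 884 RPM in cKO and 2208, 1757 and 946 RPM in WT oocytes. The means were 1642 ± 558 RPM (SD, n = 4) and 1637 ± 639 RPM (SD, n = 3). The genotypes overlapped with and without cKO replicate 4 and WT replicate 3, each of which lay far below the other libraries of its genotype. The log2 fold change was 0.01 ± 0.37, with an interval of -0.81 to 0.83 that still contains moderate changes in both directions (adjusted p = 0.991). It was -0.07 without the pair of libraries.

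Zbed3, a zinc finger protein also known to bind Axin, is annotated at chr13:95323612-95337841 on the plus strand. Its table transcript starts earlier and ends later, and its last 121 bases overlap Aggf1 on the other strand. It had 1256, 1162, 1406 and 1927 RPM in cKO and 1091, 1359 and 1619.8 RPM in WT libraries. The genotypes overlapped, with cKO replicate 4 highest of all. The log2 fold change was 0.07 ± 0.26 (95% interval -0.49 to 0.64, adjusted p = 0.909), and 0.06 without the pair.

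The spread between oocytes of 1 genotype differed between members. The SD within genotypes on the log2 scale was 0.60 for Padi6, 0.45 for Tle6, 0.38 for Nlrp5, 0.35 for Nlrp2, 0.31 for Zbed3 and 0.19 for Khdc3. Among the 1750 transcripts with a mean of at least 100 RPM the median of this SD was 0.36, and 83.1% had a smaller one than Padi6. The order of the libraries was shared in part. In 4 of the 7 member rows (Nlrp5, Nlrp2, Tle6 and Padi6) cKO replicate 4 was the lowest of the cKO libraries and WT replicate 3 the lowest of the WT libraries. In 2 rows, Zbed3 and the shared Ooep and Dppa5a transcript, the same libraries were the highest of their genotype. Khdc3 followed neither order. Over all transcripts tested, 25.2% had this pair lowest and 22.2% had it highest, so both orders were common in these oocytes.

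**Figure D3:**
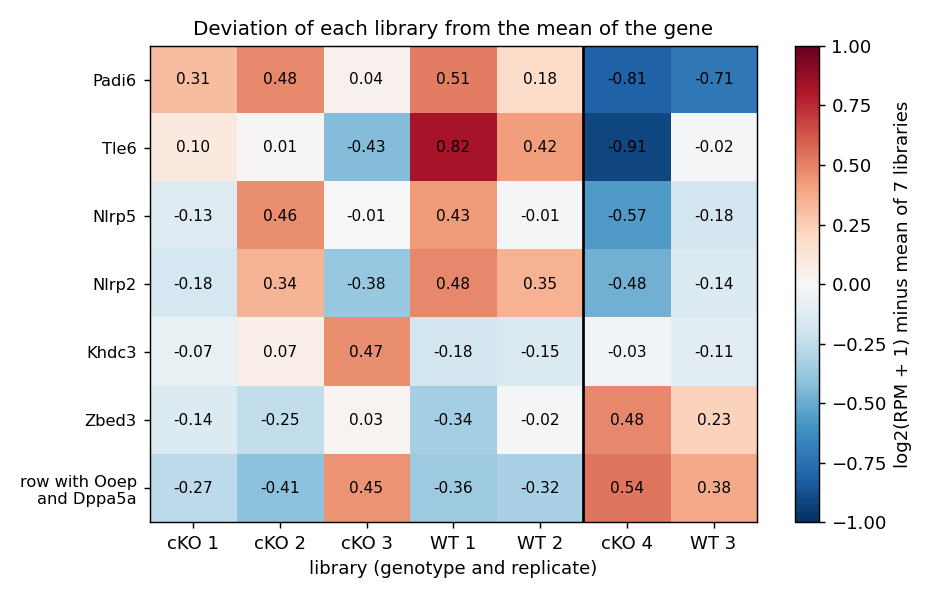
Deviation of each library from the mean of the gene over 7 libraries, in log2(RPM + 1), with red above and blue below the mean. In the 2 columns right of the black line, cKO 4 and WT 3, Padi6 is at -0.81 and -0.71, while Zbed3 is at 0.48 and 0.23.

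The summed level of the 5 members was 0.362% to 0.492% of mapped reads in cKO libraries and 0.361% to 0.487% in WT libraries. These ranges nearly coincide. Most of the sum came from Padi6, Zbed3 and Nlrp5, with means of 1640, 1403 and 1012 RPM over all libraries. Nlrp2 and Khdc3 had 150 and 42.6 RPM. Padi6 and Zbed3 had opposite orders in cKO replicate 4 and WT replicate 3, so they partly cancel in the sum. With Tle6 added the ranges were 0.392% to 0.548% and 0.416% to 0.585%. The profile over libraries most like the mean member profile, among 6152 named transcripts with a mean of at least 16 RPM, was that of Rnf146, with a root mean square difference of 0.058 on the log2 scale. It was followed by Dnaaf5 (0.064), Hnrnpf (0.065), Usp15 (0.066) and Cadm1 (0.067), beside a median of 0.36 over these transcripts. The likeness covers 7 libraries and a mean profile that itself runs only from -0.28 in cKO replicate 4 to 0.22 in cKO replicate 2, because members with opposite orders cancel in it. The 5 members, which make up this mean, lay at 0.18 (Nlrp5), 0.24 (Nlrp2), 0.26 (Khdc3), 0.35 (Padi6) and 0.42 (Zbed3) from it, so the named genes were matched to the average and not to a single member.

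Per length, the members of one complex were far from equal in transcript level. RPM was divided by the union of annotated exons in kb, which is only a guide, since the exons of the table's own transcripts are not given. The transcripts read for Khdc3 and Zbed3 run well past the annotated genes, and that of Khdc3 may hold reads of Gm20509. In WT libraries Padi6 had 647 ± 253 and Zbed3 608 ± 119 RPM per kb (SD, n = 3). Tle6 followed at 246 ± 70.5 and Nlrp5 at 218 ± 49.3 RPM per kb. Nlrp2 had 49.5 ± 10.6 and Khdc3, the lowest, 18.5 ± 0.47 RPM per kb, so that Padi6 exceeded Khdc3 by 34.9 times. In cKO libraries the means in the same order were 649, 644, 151, 202, 37.8 and 22.5 RPM per kb. Padi6 and Zbed3 did not differ beyond their spread, with Padi6 higher in 4 of 7 libraries, and neither did Tle6 and Nlrp5, with Tle6 higher in 3 of 7. The steps from Zbed3 to Tle6, from Nlrp5 to Nlrp2 and from Nlrp2 to Khdc3 had the same direction in 7 of 7 libraries, without overlap within either genotype. With the longest coding transcript as length, the last of these steps held in 6 of 7 libraries, since cKO replicate 3 had 32.8 RPM per kb for Nlrp2 and 34.9 for Khdc3, and the cKO libraries overlapped. Ooep has no level of its own here.

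**Figure D4:**
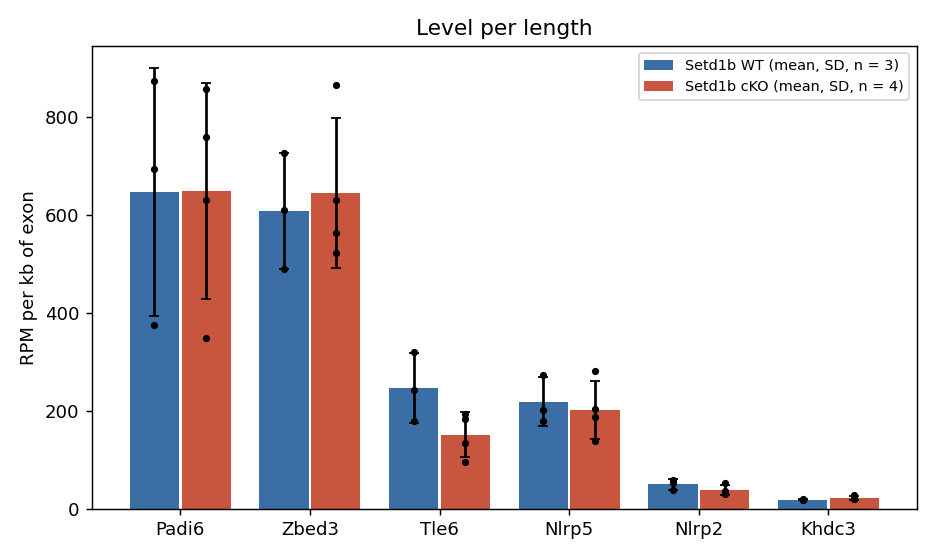
RPM per kb of annotated exon for the 6 genes with a transcript of their own, as bars for the mean with SD for Setd1b WT (blue, n = 3) and Setd1b cKO (red, n = 4), and a dot for each library. Padi6 and Zbed3 have the highest means in both genotypes, from 608 to 649, and Khdc3 is the lowest at 18.5 and 22.5.

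Of 6 partner genes, none passed as higher and 1, Nlrp4f, passed as lower, beside 1.95% of all transcripts tested that passed as lower. Nlrp4f, an oocyte NLRP protein that joins the complex, had 312, 377, 300 and 318 RPM in cKO and 718, 687 and 607 RPM in WT libraries. No cKO library came near the WT range. Its log2 fold change was -1.04 ± 0.20 (95% interval -1.47 to -0.60, adjusted p = 0.0139). It passed in 14 of 19 alternatives. After quantile normalisation and after scaling to the reads within transcripts it was short of 2-fold (-0.92 and -0.96), and leaving out cKO replicate 3, WT replicate 1 or WT replicate 2 gave adjusted p-values of 0.0512, 0.0734 and 0.075. Nlrp4f belongs to a tandem gene family, and whether its reads were shared with other copies was not tested. Nlrp14, the best read partner, had 1069 to 2990.5 RPM in cKO and 1343 to 3125 RPM in WT libraries (log2 fold change -0.35, adjusted p = 0.673). Ybx2 (MSY2), which stores maternal mRNA, is on the list but is named here after its values were seen. Its libraries did not overlap, at 26.8 to 43.2 RPM in cKO and 54.3 to 59.6 RPM in WT. Its log2 fold change of -0.67 did not pass (adjusted p = 0.104, 0.0495 to 0.288 over the alternatives). Lower cKO values without overlap, as in Nlrp4f and Ybx2, were found for 7.14% of all transcripts tested. All 6 partners on the list had a negative estimate, with a median of -0.34, beside 39.7% negative estimates over all transcripts tested. The 10 oocyte markers leaned the same way, with 9 negative estimates and a median of -0.46, so nothing particular to the partners is read from this count.

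Of the KH domain, Groucho, deiminase and Zbed relatives listed, 0 passed the threshold, beside 5.71% of all transcripts tested. At that share a count of 0 among so few genes is not a result about them. Dppa5a, listed among the KH domain genes, is the shared transcript already given for Ooep. Among the KH domain genes, Khdc1a had 51.7, 61.7, 83.0 and 61.2 RPM in cKO and 44.6, 45.2 and 50.4 RPM in WT libraries, and its cKO libraries were all higher, as for Khdc3. Its log2 fold change was 0.43 ± 0.22 (adjusted p = 0.282). Among the peptidylarginine deiminases, Padi2 and Padi1 had means of only 4.52 and 2.18 RPM over all libraries and Padi3 had no read, beside 1640.0 RPM for Padi6. Padi1 and Padi2 were without overlap higher in cKO libraries, by 0.51 and 0.55 on the log2 scale (adjusted p = 0.298 and 0.308), an order that 13.2% of all transcripts tested showed. Padi4 was at -0.48 (adjusted p = 0.404). Of the Groucho relatives of Tle6, Tle4 and Tle1 had means of 20.04 and 9.69 RPM, and 0 of 3 tested passed. Of 8 tested Zbed relatives and Axin partners of Zbed3, led by Ctnnb1 (92.6 RPM) and Apc (37.5 RPM), 0 passed, with log2 fold changes from -0.61 to 0.49.

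Upstream sequences are shown for the NLRP pair, Nlrp5 and Nlrp2, and for the members with the highest level per length, Padi6 and Zbed3. The stretches shown hold no annotated exon, but those of Nlrp5 and Zbed3 lie inside the table's own transcripts, which start further upstream. The sequences come from RefSeq (GRCm38.p6) and read 5' to 3' on the strand of the gene up to its RefSeq start site. For Nlrp2 only the 172 bases next to the start are shown (chr7:5351036-5351207, minus strand), since an exon of Gm5065 on the opposite strand begins beyond them. The others are 250 bases long: chr7:23385639-23385888 (plus strand) for Nlrp5, chr4:140742644-140742893 (minus strand) for Padi6 and chr13:95323355-95323604 (plus strand) for Zbed3. Capitals mark CCAAT and CAGGTG on either strand, so that ATTGG and CACCTG are capitals too.
Nlrp5: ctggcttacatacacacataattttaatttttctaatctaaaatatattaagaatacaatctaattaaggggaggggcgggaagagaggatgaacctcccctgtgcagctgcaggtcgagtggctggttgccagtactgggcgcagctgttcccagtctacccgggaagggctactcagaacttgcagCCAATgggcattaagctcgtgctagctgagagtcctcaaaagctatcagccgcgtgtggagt
Nlrp2: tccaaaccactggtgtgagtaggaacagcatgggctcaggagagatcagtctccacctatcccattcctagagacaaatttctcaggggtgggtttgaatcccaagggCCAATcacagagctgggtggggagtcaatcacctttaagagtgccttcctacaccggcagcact
Padi6: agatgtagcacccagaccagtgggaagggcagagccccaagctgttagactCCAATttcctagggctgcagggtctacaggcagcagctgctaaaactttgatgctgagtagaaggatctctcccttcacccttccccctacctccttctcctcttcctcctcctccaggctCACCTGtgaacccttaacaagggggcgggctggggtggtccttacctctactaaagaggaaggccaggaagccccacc
Zbed3: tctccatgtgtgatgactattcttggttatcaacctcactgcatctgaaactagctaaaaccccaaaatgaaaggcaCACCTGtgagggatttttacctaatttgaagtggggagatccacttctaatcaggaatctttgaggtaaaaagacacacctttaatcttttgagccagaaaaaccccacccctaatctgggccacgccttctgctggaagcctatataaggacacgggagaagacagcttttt

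Motifs were counted on both strands in windows of 300 bases, 250 before to 50 after the start, for all 7 members and for 32851 windows of the genome. CCAAT was found in 6 of 7 member windows beside 37.4% of all windows, with Zbed3 as the exception. CAGGTG, an E-box of the kind bound by FIGLA and TCF3 family factors, was found in 3 (Khdc3, Padi6 and Zbed3) beside 20.2%. It lay 78 bases before the start in both Khdc3 and Padi6, and 173 bases before it in Zbed3. The wider E-box CANNTG, which includes CAGGTG, was in 6 of 7 beside 72.3%, and Nlrp2 had none. TAATTG was in 2 (Ooep and Padi6) beside 8.0%, in Ooep overlapping a CCAAT, and TATAAA in 0 beside 13.6%. CpG counts ran from 0 in Khdc3 over 2 in Padi6, 3 in Nlrp2, 4 in Zbed3 and 9 in Nlrp5 to 15 in Ooep and 18 in Tle6, with a median of 7 over all windows. CXXC1, a subunit of the SETD1B complex, binds unmethylated CpG and H3K4me3, and the study proposes that it likely guides SETD1B to active promoters. The members cover a wide range of CpG counts, and whether these counts relate to SETD1B was not tested. RefSeq starts were 0 bases from the start of the table transcript in Padi6, 38 in Nlrp2, 265 in Ooep, 281 in Tle6, 472 in Nlrp5, 854 in Zbed3 and 1547 in Khdc3. In all but Padi6 and Nlrp2 the table transcript thus starts outside the window, which may not be the promoter used in these oocytes.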

How the data were processed

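The authors made cDNA of single GV oocytes with the SMARTer kit and sequenced it as single reads. Reads were trimmed (trim galore), aligned to GRCm38 with Hisat, filtered for mapping quality and quantified over merged oocyte transcripts in SeqMonk, per the study's methods. The submitters' processing notes also name bcl2fastq 1.8.4 and featureCounts 1.4.4. The authors deposited log2 RPM per transcript, relative to the mapped reads. Here they were turned into RPM (100% of values gave whole reads within 0.1 read, with 0.9 read standing for 0) and, with a pseudocount of 1 RPM, into log2(RPM + 1).

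The 18179 transcripts that reached 1 RPM in 3 or more libraries were tested with limma 3.58.1 (lmFit, eBayes with trend) in R 4.3.3, two-sided, all 7 libraries, no covariate, with Benjamini-Hochberg adjustment over all of them. All 5 members of the rule, Tle6 and the shared Ooep and Dppa5a transcript passed this filter. The threshold was an adjusted p under 0.05 and over 2-fold. The fit was tested on simulated data. Members, gene lists and named genes (all members, listed genes past the threshold or with the 2 highest means) were chosen with earlier results of these data known. Gene models were GENCODE M21, and Python 3.11.15 was used. The alternatives were pseudocounts of 0.1 and 5 RPM, deposited values, no filter, a mean of 4 RPM, other scalings, no trend, voom, a replicate block and single libraries left out. Removal of cKO replicate 4 with WT replicate 3, Tle6 by position and the shared transcript were added after the data had been seen. No member had several transcripts on its strand, so their sum was not run.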

Additional observations from a re-analysis of the deposited data

How the results depend on the processing

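Of the 5 members found by the rule, 0 passed the threshold and 0 had an adjusted p under 0.05 in the reported fit and in all 19 alternatives. Tle6, read by position, also passed in none, but its adjusted p was 0.037 without cKO replicate 4 and WT replicate 3. Over all transcripts, the genes higher in cKO numbered 683 as reported, 315 with a pseudocount of 5 RPM, 174 without a filter, 428 after quantile normalisation, 443 with voom, 1029 without cKO replicate 4 and WT replicate 3, and 171 to 850 with single libraries left out. The genes lower in cKO numbered 355, 129 without a filter and 109 to 437 with single libraries left out. The libraries that moved these counts most were cKO replicates 1 and 3 and WT replicates 1 and 2, without which 392, 328, 238 and 171 genes were higher and 221, 232, 134 and 109 lower. Centring on the median gene gave 458 higher and 531 lower, as it moved the median of all transcripts from 0.12 to -0.03. The median member log2 fold change went from 0.01 to between -0.27 (without WT replicate 3) and 0.085 with single libraries left out, to 0.25 after quantile normalisation and to -0.14 after centring. Signs turned for 3 members near 0. Nlrp5 was at 0.0072 after quantile normalisation and at -0.31 to 0.037 with single libraries left out. Padi6 was at -0.14 after centring, -0.068 without the pair of libraries and -0.34 to 0.28 with single libraries left out. Zbed3 was at -0.081 after centring and -0.076 to 0.21 with single libraries left out. With the replicate block, Nlrp5 was at 0.032 and Zbed3 at -0.076, and 924 genes were higher and 479 lower. Same-numbered libraries correlated at 0.19, 0.29 and -0.13 in their deviations, beside 0.61 for cKO replicate 4 with WT replicate 3. Whether libraries were collected in pairs cannot be told from these values. With the longest coding transcript as length, the WT levels of Nlrp5, Tle6 and Khdc3 became 302, 377 and 22.6 RPM per kb. The causes were not tested. With 4 against 3 oocytes, the intervals of single members still held changes smaller than 2-fold, and the member with fewest reads had at least 355 in each library.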

Other observations

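Mos, the kinase that holds the mature egg in meiotic arrest, had 196, 204, 163 and 201 RPM in cKO and 551, 406 and 500.2 RPM in WT libraries, and differed by -1.34 ± 0.20 on the log2 scale (limma adjusted p = 0.00581). It was the only one of 10 oocyte markers past the threshold, beside 5.71% of all transcripts tested, and it passed in 19 of 19 alternatives. Nlrc4, an NLR protein known from inflammasomes and the only somatic member of that list with enough reads to be tested, had 25.1, 26.7, 20.5 and 20.4 RPM in cKO and 39.7, 47.8 and 53.0 RPM in WT libraries. Its log2 fold change of -0.98 had an adjusted p of 0.0256 but stayed short of 2-fold, and passed in 6 of 19 alternatives. Without any 1 of cKO replicates 1 and 3 and WT replicates 1, 2 and 3 its adjusted p was 0.0566 to 0.113. Pycard and Nlrp3 had no read.

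Of 8 tested transcription factors of oocyte genes, none passed, beside 5.71% of all transcripts tested. Taf4b, a gonadal TFIID subunit, was higher by 1.03 on the log2 scale without overlap (adjusted p = 0.0578, range over alternatives 0.039 to 0.153). Higher cKO values without overlap were found for 13.2% of all transcripts tested. Tbpl2, a germ cell relative of the TATA-binding protein, was at -1.10 (adjusted p = 0.126). Both were chosen after their values were seen. By the naming rule, Nobox had a mean of 624 RPM, and the transcript named Figla, whose span is rather that of its neighbour Add2, had 52.3 RPM. Cd68, a lysosomal protein used as an immune marker, passed as higher, with 9.01, 8.98, 4.61 and 13.05 RPM in cKO and 2.27, 2.16 and 3.74 RPM in WT libraries (log2 fold change 1.36, adjusted p = 0.0435), and kept that call in 8 of 19 alternatives. It lost the call without any 1 of cKO replicates 1, 2 and 4 and WT replicates 1 and 2, with adjusted p from 0.0557 to 0.167.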
